A study of Mus musculus with 12 samples.

Results

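The genes described here are those of the cytosolic ribosomal proteins, the proteins that with ribosomal RNA build the ribosome of the cytoplasm. They were taken by symbol, as Rpl or Rps followed by a digit, together with Rplp0, Rplp1, Rplp2 and Rpsa, without pseudogene symbols ending in -ps and without the Rps6k kinases. The rule found 86 of the 15397 genes measured in mouse striatum. Of these, 42 encode large-subunit proteins, 31 small-subunit proteins and 3 the stalk, 7 are paralogs of a ribosomal protein gene, and 2 (Rpl37rt and Rps27rt) are retrotransposed copies. The last, Rps19bp1, matched the rule by its symbol but encodes a nucleolar protein that binds Rps19, not a ribosomal protein. Another 5 RefSeq protein-coding symbols that match the rule (Rpl10l, Rpl39, Rpl39l, Rpl3l and Rps23rg1) were not analysed here.

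The RNA came from microdissected striatum of 12 mice, 3 in each of 4 groups: R6/2 mice on PLX3397, R6/2 mice on vehicle, wild-type mice on PLX3397 and wild-type mice on vehicle. R6/2 mice are a model of Huntington's disease that carry the first exon of a mutant human huntingtin gene under its human promoter, so the transgene is a fragment and is active in many tissues. PLX3397 inhibits the kinase Csf1r, on which microglia depend, and was given in chow at 275 ppm, and all groups were treated from 7 to 11 weeks of age. Every mouse carries the strain label C57BL/6, and sex is not given in the sources used here. The series asks what microglial depletion changes in the striatum of these mice.

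Ribosomal proteins are made in nearly equal numbers, since each ribosome holds a single copy of most of them and cells degrade the excess. Many of their mRNAs begin with a C followed by a run of pyrimidines, the terminal oligopyrimidine tract, through which the mTOR pathway and the RNA-binding protein Larp1 control how strongly they are translated. Cells hold many processed pseudogenes of these genes, and several members have a close paralog, so reads of near-identical copies can be shared out differently by different ways of counting.

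The first bases of some transcripts show this feature, and 8 windows are printed. They hold the 4 members with a tract and a result below, and 1 member with a tract whose level differed on drug in wild type. The last 3 lack a tract that begins with C at the annotated start. Each window is 30 bases of RefSeq sequence on GRCm38.p6, 5′ to 3′ on the gene's strand, with 15 bases before the annotated start. Capitals mark the C at the start and the C or T letters that follow it without a break.
Rpl28 (chr7:4792950-4792979, plus strand): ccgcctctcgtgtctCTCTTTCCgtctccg
Rplp2 (chr7:141447636-141447665, plus strand): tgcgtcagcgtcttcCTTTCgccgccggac
Rpl35 (chr2:39005117-39005146, minus strand): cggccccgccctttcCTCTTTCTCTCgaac
Rps10 (chr17:27635230-27635259, minus strand): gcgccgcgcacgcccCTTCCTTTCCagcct
Rps21 (chr2:180257364-180257393, plus strand): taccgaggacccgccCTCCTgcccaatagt
Rpl7a (chr2:26910792-26910821, plus strand): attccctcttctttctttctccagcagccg
Rplp0 (chr5:115559452-115559481, plus strand): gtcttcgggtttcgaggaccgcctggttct
Rpl22 (chr4:152325711-152325740, plus strand): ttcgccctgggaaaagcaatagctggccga
The first 5 windows hold a tract of at least 5 letters that begins with C at the annotated start, and the last 3 do not. The Rpl7a start lies inside a run of C and T letters but falls on a T. Of the 86 members, 64 had an entry in the promoter table, and 15 of these (23.4%) had a C at the start followed by at least 4 C or T letters, against 3.04% of the 11814 measured genes in the table. The letters CCGGAAG, the core of an ETS-family motif, stood on either strand within the 300 bases around the start in 24 of the 64 members (37.5%), against 17.8% of all genes. The letters TATAAA stood in the 50 bases before the start in 1 member (1.56%), against 1.77% of all genes. An annotated start can lie some bases from the start used in this tissue, so these shares describe the annotation.

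Library depth was 18902120 to 24293208 reads. Of 12 microglial markers 11 were called lower with PLX3397 than with vehicle in R6/2 mice, and 11 in wild-type mice. Their summed level was 26.6 to 39.7 CPM and 415 to 580.5 CPM in R6/2 mice on PLX3397 and on vehicle, and 30.7 to 55.4 CPM and 458 to 537 CPM in wild-type mice on PLX3397 and on vehicle, with Siglech and P2ry13 at 0 reads in some R6/2 PLX3397 library and Siglech and C1qc in some wild-type PLX3397 library. The 11 markers of medium spiny neurons, the main neuron type of the striatum, were detected in every library, and their summed level was 619 to 2183 CPM and 605 to 1523 CPM in R6/2 mice on PLX3397 and on vehicle, and 6624 to 15740 CPM and 3188 to 9423 CPM in wild-type mice on PLX3397 and on vehicle. In bulk tissue, fewer cells of a type and less RNA per cell cannot be told apart. Markers of neighbouring regions differed between libraries within groups: cortical neuron markers were lowest in R6/2 PLX3397 libraries 1 and 2 and wild-type PLX3397 library 1, and choroid plexus markers were highest in R6/2 vehicle library 1 and wild-type PLX3397 library 1. The summed level of 8 markers of thalamus and septum was 258.0 CPM in R6/2 vehicle library 1, against 53.7 and 54.7 CPM in the other libraries of its group, and 333.9 CPM in wild-type PLX3397 library 2, against 36.0 and 59.3 CPM in the others of its group. It was 94.5 to 406 CPM in R6/2 mice on PLX3397 and 186 to 433 CPM in wild-type mice on vehicle, and no marker of that list was at 0 reads.

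Levels of the members spanned a wide range although their proteins are needed in near-equal numbers. Mean values ran from 1.43 log2 CPM (CPM being reads scaled to the same library size) for Rpl32l to 8.80 log2 CPM for Rpl4, with at least 42 reads for every member in every library, so every member stayed in the test. Per kilobase of the annotated transcript, the highest members were the stalk protein gene Rplp1 at 9.49, the small-subunit gene Rps15 at 8.83 and the large-subunit gene Rpl8 at 8.31 log2 CPM per kb. The lowest were Rps13 at 1.42, Rpl13 at 1.96 and Rpl9 at 1.99 log2 CPM per kb. These levels rest on the annotated transcript length and on how reads of near-identical copies were counted. Members had short transcripts, with a median length of 914 bases against 3228 bases over all genes with a known length, and a GC content of 51.6% against 50.3%.

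Copies show how much the counting can matter. The retrotransposed gene Rpl37rt had 2224 to 6017 reads per library where its parent Rpl37 had 148 to 656, and Rps27rt had 1660 to 4157 reads where Rps27 had 50 to 121. The symbol Rps6-ps4, left out by the rule, had 1995 to 4776 reads per library, whereas Rps6, the small-subunit protein that S6 kinase phosphorylates, had 177 to 341 reads. For these genes the reads of parent and copy cannot be told apart with certainty, so the parents' levels are uncertain.

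The libraries differed from each other as a block across the members. Each member's value was set against its own mean over the 12 libraries. The median deviation of the 86 members was -0.21, -0.25 and -0.35 in the R6/2 PLX3397 libraries and 0.31, -0.21 and -0.12 in the R6/2 vehicle libraries. It was 0.05, 0.80 and 0.21 in the wild-type PLX3397 libraries and -0.02, -0.21 and 0.09 in the wild-type vehicle libraries. Wild-type PLX3397 library 2 stood apart: it held the highest value of 72 of the 86 members, and the members took 0.974% of its reads, against 0.421% to 0.728% in the other libraries. R6/2 PLX3397 library 3 held the lowest value of 35 members. R6/2 vehicle library 1 was second highest by median, and its group otherwise lay below 0.

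**Figure D1:**
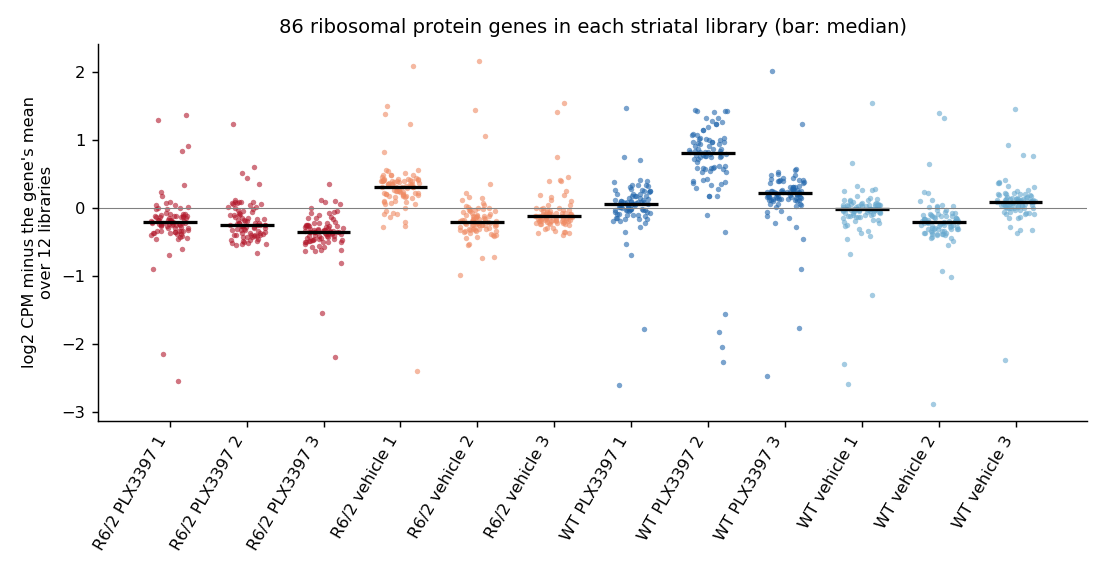
Deviation of each of the 86 ribosomal protein genes (points, log2 CPM minus the gene's mean over 12 libraries) in each library, with the median as a bar, for R6/2 PLX3397, R6/2 vehicle, wild-type (WT) PLX3397 and wild-type vehicle mice. The median was 0.80 in wild-type PLX3397 library 2 and between -0.35 and 0.31 in the other libraries, and a few genes lay far from the rest.

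Transcript length moved with these block shifts. Across all genes with a known length, the rank correlation between a library's deviation and transcript length was 0.26, 0.34 and 0.37 in the R6/2 PLX3397 libraries and -0.42, 0.18 and 0.28 in the R6/2 vehicle libraries. It was -0.12, -0.60 and -0.34 in the wild-type PLX3397 libraries and 0.26, 0.34 and 0.02 in the wild-type vehicle libraries. The 3 libraries with the most negative values were the 3 with the highest median of the members: wild-type PLX3397 library 2, R6/2 vehicle library 1 and wild-type PLX3397 library 3. The rank correlation with GC content did not follow the same order: it was highest, at 0.45, in wild-type PLX3397 library 1, where the members' median was 0.05. These correlations describe genes within a library, and genes are not independent replicates. After a smooth trend on length and GC content was removed from each library, the members' median deviation lay between -0.13 and 0.28, with wild-type PLX3397 library 2 still the highest. Each comparison below is given as deposited, without that library where it enters, and after removal of the trend. In the last form the median of all genes moved to 0.10 in R6/2 against wild-type mice on vehicle and to 0.09 in wild-type mice on PLX3397 against vehicle.

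No ribosomal protein gene passed the test between R6/2 and wild-type mice on vehicle. A gene was called when its Benjamini-Hochberg adjusted p over all 15397 genes, from limma, was under 0.05. None of the 86 members was called, against 2.11% of all genes. An unadjusted p under 0.05 was found for 3 members, against 3476 of all 15397 genes. The median log2 difference of the members was 0.05, against 0.01 for all genes, and it was above 0 for 56 members and below 0 for 30. The groups did not overlap, with R6/2 higher, for 5 members, against 16.4% of all genes, and with R6/2 lower for 3 members, against 17.1%. Without R6/2 vehicle library 1 the members' median was -0.10, and without wild-type vehicle library 2 it was -0.03, so its direction rests on single libraries.

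The member with the smallest p in that comparison was Rpl7l1, a paralog of Rpl7 linked to assembly of the large subunit. It measured 5.82, 5.70 and 5.63 log2 CPM in R6/2 mice on vehicle, against 5.38, 5.23 and 5.44 log2 CPM in wild-type mice on vehicle. All R6/2 values lay above all wild-type values, but the log2 difference of 0.37 ± 0.11 (SE) had an adjusted p of 0.0963 (limma) and was called with the trend removed, at 0.0481, as the 1 member called there, against 6.62% of all genes. Its parent Rpl7 had a difference of 0.05 ± 0.18 in the same mice. The next members by p were Rps3a1 (3.19 ± 1.18, adjusted p = 0.150 by limma), Rpl31 (-0.49 ± 0.20), Rpl22 (0.27 ± 0.12), Rps4l (0.91 ± 0.43) and Rpl28 (0.40 ± 0.20).

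In wild-type mice the members were on balance higher with PLX3397 than with vehicle, and few passed the test. Higher values were called for 4 members, or 4.65%, against 5.93% of all genes, a share no larger than the background. No member was called lower, against 8.3% of all genes. The median log2 difference was 0.43, against 0.00 over all genes, and 79 of 86 members lay above 0. The groups did not overlap, with the drug higher, for 33 members, against 18.8% of all genes, and with the drug lower for 1 member, against 17.3%. Without wild-type PLX3397 library 2 the median was 0.19 and no member was called, against 6.07% of all genes, and with the trend removed it was 0.16, against 0.09 over all genes, with 2 members called higher, Rpl7 and Rpl23, against 4.56% of all genes. Markers of oligodendrocyte precursors moved with this comparison, with 3 of 4 called lower and a summed level of 74.8 to 109 CPM with PLX3397, against 205 to 217 CPM with vehicle. All 8 thalamus and septum markers lay below 0, with a median of -2.005 and 1 called lower. The summed level of astrocyte markers was 2273 to 3235 CPM with PLX3397, against 3752 to 4996 CPM with vehicle. The part of these lists in the result was not tested. Leaving out wild-type PLX3397 library 1 gave 16 calls, wild-type vehicle library 1 or 2 gave 0, R6/2 vehicle library 1 gave 5, and each of the remaining 7 libraries gave 2. The shares of all genes called in these fits are not given here, so these counts are not set against a background.

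The 4 members called higher with the drug in wild type, as deposited, were Rpl29, Rpl28, Rpl7a and Rps19bp1. None of them was called without wild-type PLX3397 library 2 or with the trend removed. Rpl29, a large-subunit protein that also binds heparin, measured 6.55, 7.48 and 6.74 log2 CPM in wild-type mice on PLX3397, against 6.09, 5.93 and 6.18 log2 CPM in wild-type mice on vehicle. The groups did not overlap, with library 2 highest, and the log2 difference was 0.85 ± 0.21 (adjusted p = 0.0283, limma). Rpl7a, a large-subunit protein that binds RNA early in assembly, measured 5.82, 5.92 and 5.71 log2 CPM with PLX3397, against 5.42, 5.35 and 5.53 log2 CPM with vehicle, a difference of 0.38 ± 0.11 (adjusted p = 0.0455, limma). Its 3 treated values lay close together and all above the vehicle values, but with the trend removed the difference was 0.05. Rpl28, a large-subunit protein, measured 2.38, 3.04 and 2.97 log2 CPM with PLX3397, against 2.10, 2.07 and 2.13 log2 CPM with vehicle, from 99 to 187 reads and 76 to 100 reads, a difference of 0.70 ± 0.20 (adjusted p = 0.0417, limma). Rps19bp1 had a difference of 0.63 ± 0.16 (adjusted p = 0.0296, limma).

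In R6/2 mice the members were on balance lower with PLX3397 than with vehicle, and none passed the test. None of 86 was called, against 1.1% of all genes. An unadjusted p under 0.05 was found for 7 members, against 2023 of all 15397 genes. The median log2 difference was -0.26, against -0.01 over all genes, and 78 of 86 members lay below 0. The groups did not overlap, with the drug lower, for 30 members, against 11.9% of all genes, and for no member with the drug higher, against 12.2%. Without R6/2 vehicle library 1 the median was -0.10, and with the trend removed it was -0.03, against 0.03 over all genes, with no member called, against 1.17% of all genes. Rpl22, a large-subunit protein that also binds RNA outside the ribosome, had the smallest p. It measured 6.35, 6.47 and 6.54 log2 CPM with PLX3397, against 6.93, 6.84 and 6.88 log2 CPM with vehicle, all treated values below all vehicle values, and its difference of -0.43 ± 0.12 had an adjusted p of 0.204 (limma). The next by p were Rps19bp1 (-0.44 ± 0.16), Rpl29 (-0.58 ± 0.21), Rplp0 (-0.48 ± 0.19), Rpl7a (-0.28 ± 0.11) and Rps2 (-2.86 ± 1.24).

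**Figure D2:**
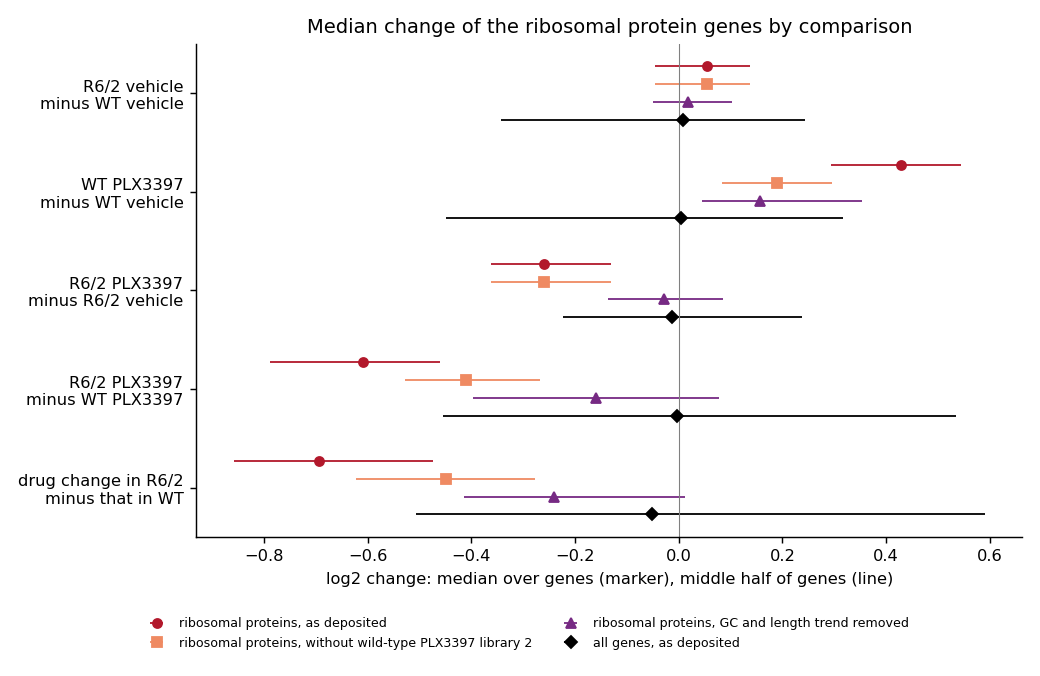
Median log2 change (marker) and the middle range of genes from the lower to the upper quartile (line) in each comparison, as labelled on the axis, for the ribosomal protein genes as deposited, without wild-type PLX3397 library 2 and after the trend on GC and length was removed, and for all genes. The members' median was -0.61, -0.41 and -0.16 in R6/2 against wild-type mice on PLX3397, against -0.00 for all genes.

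On PLX3397, R6/2 mice had lower levels of many ribosomal protein genes than wild-type mice. In this comparison 41 of the 86 members (47.7%) were called lower, against 17.9% of all genes, and none was called higher, against 17.1%. The median log2 difference was -0.61, against -0.00 over all genes, and 80 of 86 members lay below 0. The groups did not overlap, with R6/2 lower, for 61 members, against 24.2% of all genes, and for no member with R6/2 higher, against 22.6%. Without wild-type PLX3397 library 2 the median was -0.41 and 15 members (17.4%) were called lower, against 13.5% of all genes. With the trend removed it was -0.16, against 0.02 over all genes, and 15 of 85 members (17.6%) were called lower, against 12.3% of all genes, while 1, Rps27, was called higher, against 11.1%. Both shares lie much nearer the background than that of the deposited values.

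The lower calls fell on both subunits. All 3 stalk genes, 23 of 42 large-subunit genes, 13 of 31 small-subunit genes, 1 of the 2 retrotransposed copies and none of the 7 paralogs were called lower, with the remaining call on Rps19bp1. The median log2 difference was -0.82 for the stalk, -0.63 for the large subunit, -0.58 for the small subunit and -0.47 for the paralogs. Differences among these classes were not tested. Of the 41 members, 15 were also called lower without wild-type PLX3397 library 2, and 13 were also called lower with the trend removed. In all 3 forms 6 were called lower, among them Rplp0, Rpl27a, Rpl29, Rpl31 and Rps19. Shares of all genes called lower in the same combinations of forms are not given here. These counts are therefore not set against a background. Leaving out R6/2 PLX3397 library 1, 2 or 3 gave 19, 16 and 19 calls, and the shares of all genes called in these fits are not given here. Without libraries 1 and 2, which were low in cortical markers, 1 library was left in the group, and the median was -0.70.

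The stalk recruits the factors that drive translation forward. Rplp0, its base and a frequent reference gene in PCR, measured 6.64, 6.64 and 6.74 log2 CPM in R6/2 mice on PLX3397, against 7.27, 7.88 and 7.33 log2 CPM in wild-type mice on PLX3397. The groups did not overlap, and the log2 difference was -0.82 ± 0.19 (adjusted p = 0.00828, limma), -0.62 without wild-type PLX3397 library 2 and -0.35 with the trend removed, all called. Rplp1, which with Rplp2 forms the flexible arms of the stalk, measured between 7.99 and 8.08 log2 CPM in the 3 R6/2 mice, against 8.69, 9.63 and 8.85 log2 CPM in wild-type mice, a difference of -1.03 ± 0.23 (adjusted p = 0.00778, limma). All R6/2 values again lay below all wild-type values, but the difference was -0.20 with the trend removed and was then not called. Rplp2 had a difference of -0.77 ± 0.22 (adjusted p = 0.0230, limma) and was called in neither other form.

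Among large-subunit genes the largest fall was that of Rpl29. It measured 5.48, 5.63 and 5.53 log2 CPM in R6/2 mice on PLX3397, against 6.55, 7.48 and 6.74 log2 CPM in wild-type mice on PLX3397. The groups lay 0.92 apart at their nearest values, and the log2 difference of -1.38 ± 0.21 (adjusted p = 0.00143, limma) was -1.10 without library 2 of the wild-type group and -0.58 with the trend removed, all called. Rpl41, the smallest ribosomal protein, measured 6.41, 6.25 and 6.17 log2 CPM in R6/2 mice, against 6.95, 8.20 and 7.27 log2 CPM in wild-type mice, a difference of -1.20 ± 0.29 (adjusted p = 0.0106, limma). Its groups did not overlap, library 2 lay highest in the wild-type group, and with the trend removed the difference was -0.45 and not called. Rpl13a, often used as a reference gene, had a difference of -0.81 ± 0.25 (adjusted p = 0.0274, limma) that was called in neither other form.

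The small-subunit gene with the largest fall was Rps19, mutated in Diamond-Blackfan anaemia. It measured 5.45, 5.19 and 5.04 log2 CPM in R6/2 mice on PLX3397, against 6.16, 7.29 and 6.26 log2 CPM in wild-type mice on PLX3397. No values overlapped, and the log2 difference was -1.34 ± 0.30 (adjusted p = 0.00722, limma), -0.98 without wild-type PLX3397 library 2 and -0.85 with the trend removed, all called. Rps28 had a difference of -1.05 ± 0.30 (adjusted p = 0.0195, limma), which was -0.23 and not called with the trend removed. Rps3, which lines the mRNA entry channel, had a difference of -0.66 ± 0.21 (adjusted p = 0.0332, limma) that was not called without wild-type PLX3397 library 2, and Rpsa, a small-subunit protein also known as a laminin receptor, one of -0.95 ± 0.38 that was not called.

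Several well-known members lay outside the calls. Rpl5 and Rpl11, which as a complex with ribosomal RNA bind the p53 regulator Mdm2, had log2 differences of 0.24 ± 0.19 and -0.44 ± 0.23 (adjusted p = 0.330 and 0.152, limma). Rps6 had a difference of -0.26 ± 0.18, Rps27a, a fusion of ubiquitin and a ribosomal protein, one of -0.44 ± 0.17, and Rpl38, linked in mice to selective translation of Hox mRNAs, one of -0.79 ± 0.28, with adjusted p of 0.293, 0.0716 and 0.0513 (limma). Rpl10, a large-subunit protein joined late in assembly, had the narrowest range of all members over the 12 libraries, 0.56 on the log2 scale, against a median range of 1.25 for the members and 1.27 for all genes. It measured 3.23, 3.10 and 3.24 log2 CPM in R6/2 mice on PLX3397, against 3.66, 3.60 and 3.42 log2 CPM in wild-type mice on PLX3397, a difference of -0.37 ± 0.13 (adjusted p = 0.0509, limma). The 3 members above 0 apart from those of widest range were Rpl5, Rps15a (0.29 ± 0.25) and Rps4l (0.28 ± 0.43), none of them called.

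**Figure D3:**
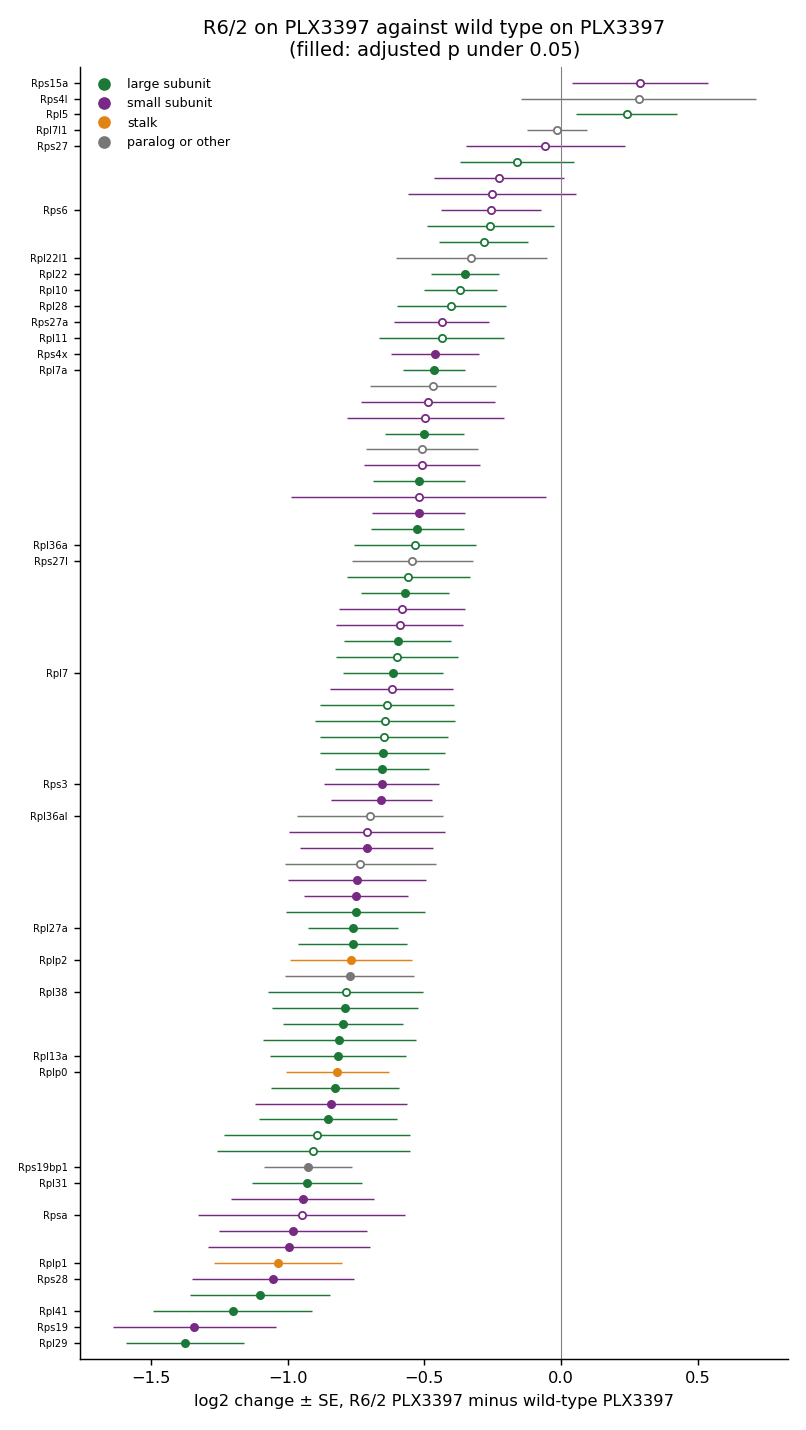
Log2 change ± SE of 80 ribosomal protein genes in R6/2 mice on PLX3397 minus wild-type mice on PLX3397 (the 6 members of widest range are left out), ordered by change, with genes at an adjusted p under 0.05 filled and some of the genes named on the axis. The changes ran from -1.38 for Rpl29 to 0.29 for Rps15a, and 77 of the 80 lay below 0.

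Medium spiny neuron markers moved with this comparison, with 11 of 11 called lower in R6/2 mice on PLX3397 than in wild-type mice on PLX3397, at a median of -2.70. No marker of that list was at 0 reads in any library. Among 8 cortical markers 1 was called in each direction, and their summed level was 84.2 to 852 CPM in R6/2 mice on PLX3397, against 205 to 1083 CPM in wild-type mice on PLX3397. Of 4 markers of oligodendrocyte precursors 3 were called higher, with a summed level of 150.3 to 188 CPM in R6/2 mice on PLX3397, against 74.8 to 109 CPM in wild-type mice on PLX3397. Of the 8 thalamus and septum markers 2 were called higher, with a median of 1.30. The summed level of oligodendrocyte markers was 4482 to 7494 CPM in R6/2 mice on PLX3397, against 8820 to 11640 CPM in wild-type mice on PLX3397. The part of these cell type differences in the ribosomal protein result was not tested. In R6/2 against wild-type mice on vehicle the same medium spiny neuron list had a median of -2.50 with 5 of 11 called lower. The members' median there was 0.05, and -0.10 without R6/2 vehicle library 1. How the members' change relates to that of the markers was not tested.

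The change with PLX3397 differed between genotypes for 5 members, as tested by the interaction of genotype and drug, the drug's log2 change in R6/2 minus that in wild type. All 5 (5.81%) were lower, against 7.71% of all genes called lower and 17.0% called in either direction, so the share was no larger than the background. The median over the members was -0.69, against -0.05 over all genes, and 83 of 86 lay below 0. Rpl29 had an interaction of -1.44 ± 0.30 (adjusted p = 0.0175, limma), Rps19bp1 of -1.07 ± 0.23 (0.0175), Rplp0 of -0.92 ± 0.27 (0.0390), Rpl7a of -0.66 ± 0.16 (0.0232) and Rpl22 of -0.62 ± 0.17 (0.0360). For Rplp0 the 4 groups measured 6.67 ± 0.06 log2 CPM in R6/2 mice on PLX3397, 7.15 ± 0.32 in R6/2 mice on vehicle, 7.49 ± 0.34 in wild-type mice on PLX3397 and 7.05 ± 0.13 in wild-type mice on vehicle (SD, n = 3 each). With the trend removed no member was called, against 2.2% of all genes, and the median was -0.24, against -0.08 over all genes. Without wild-type PLX3397 library 2 there were 3 lower calls, against 4.88% of all genes, and a median of -0.45, without library 1 of that group 30 calls, and without wild-type vehicle library 1 or 2 there were 1 and 0. Leaving out R6/2 vehicle library 1 or 3 gave 2 and 3 calls, and R6/2 PLX3397 library 1 or 2 gave 3 and 2. Apart from the fit without wild-type PLX3397 library 2, the shares of all genes called in these fits are not given here. Their counts are not set against a background. Of the thalamus and septum markers 2 were called higher in the interaction, with a median of 3.53, and their part in the result was not tested. The comparisons above share libraries, so they are not independent of each other.

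**Figure D4:**
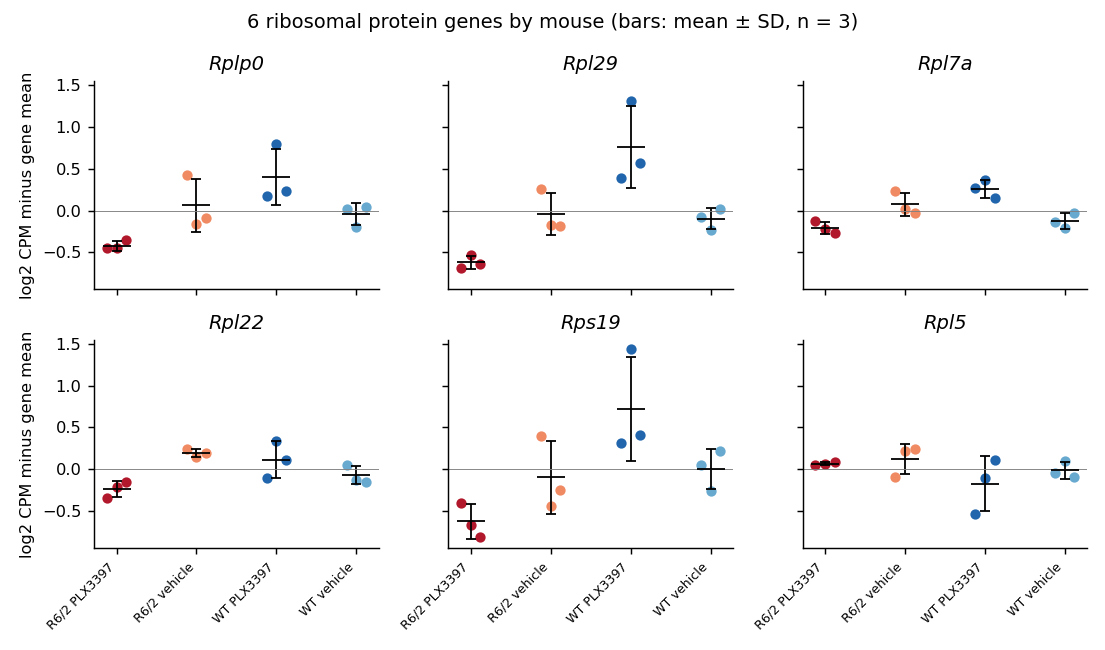
Log2 CPM minus the gene's mean over 12 libraries for 6 genes in each mouse (points) with the group mean ± SD (n = 3), in R6/2 PLX3397, R6/2 vehicle, wild-type (WT) PLX3397 and wild-type vehicle mice. R6/2 PLX3397 mice had the lowest mean for Rplp0, Rpl29, Rpl7a, Rpl22 and Rps19, one wild-type PLX3397 mouse lay far above the others for Rpl29 and Rps19, and Rpl5 did not follow this order.

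Paralogs and their parents were measured side by side. Rpl22l1, which can replace Rpl22 in the ribosome, had 4.94 ± 0.23 log2 CPM in R6/2 mice on PLX3397, against 5.27 ± 0.49 log2 CPM in wild-type mice on PLX3397 (SD, n = 3 each), a log2 difference of -0.33 ± 0.28, while Rpl22 itself had -0.35 ± 0.12 (adjusted p = 0.0461, limma). Rpl7l1 had a difference of -0.02 ± 0.11 in the same mice, and Rpl7 one of -0.61 ± 0.18 (adjusted p = 0.0245, limma). Rps27l, a target of p53, had -0.54 ± 0.22, and Rps27 had -0.06 ± 0.29. Rpl36al had -0.70 ± 0.27 and its X-linked relative Rpl36a -0.54 ± 0.22, and the X-linked Rps4x had -0.46 ± 0.16 (adjusted p = 0.0457, limma). Without wild-type PLX3397 library 2 none of Rpl22, Rpl7 and Rps4x was called, and with the trend removed Rpl7 was called and the other members named here were not, apart from Rps27, which was higher. Differences between a paralog and its parent were not tested.

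A set of 6 members was high in some libraries and low in others of the same group. They are the members with a range above 2.5 on the log2 scale and were singled out after their values were seen. Rps2, a small-subunit protein at the mRNA entry site, had 96, 1288 and 116 reads in R6/2 mice on PLX3397 and 1722, 2034 and 1194 reads in R6/2 mice on vehicle. It had 1239, 148 and 137 reads in wild-type mice on PLX3397 and 84, 1348 and 1483 reads in wild-type mice on vehicle, so that 3 of the 4 groups held both high and low libraries. Rps3a1, a small-subunit protein, had 74, 112 and 1932 reads in wild-type mice on PLX3397 and 70, 70 and 1055 reads in wild-type mice on vehicle, while every R6/2 library had at least 707, so that its 4 low libraries were all wild type. Wild-type PLX3397 library 2 and wild-type vehicle library 1 were low for both genes, and the other low libraries differed between them.

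The other 4 switching members were Rpl26, Rpl3, Rpl21 and Rps18. Rpl26, a large-subunit protein near the exit of the peptide tunnel, had 1341, 673 and 557 reads in R6/2 mice on PLX3397, 110, 559 and 591 in R6/2 mice on vehicle, 722, 123 and 80 in wild-type mice on PLX3397 and 1176, 1237 and 883 in wild-type mice on vehicle. Rpl3, which lies near the catalytic centre, was lowest with 171 reads in wild-type PLX3397 library 1 and 149 in wild-type vehicle library 3, and had at least 563 in every other library. Rpl21, a large-subunit protein, was lowest with 170 reads in R6/2 PLX3397 library 1 and 239 in wild-type PLX3397 library 2. Rps18, a protein of the small-subunit head, ran from 101 reads in wild-type vehicle library 1 to 645 in R6/2 vehicle library 1. None of the 6 was called in any comparison, and without them the members' medians moved by no more than the spread between replicates.

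**Figure D5:**
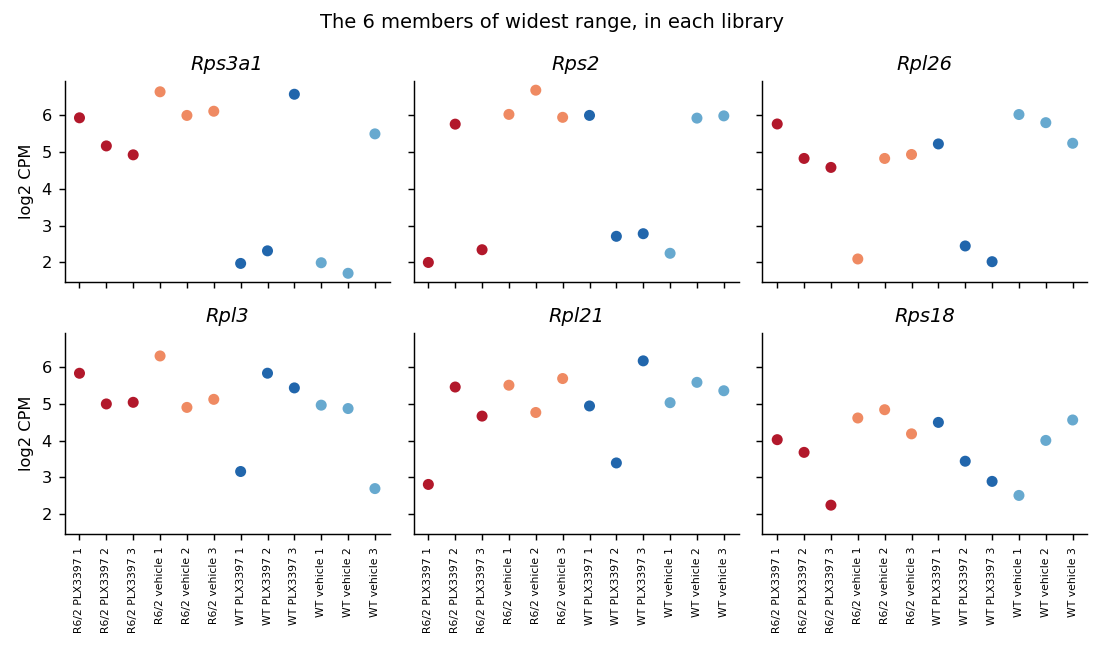
Log2 CPM of the 6 members of widest range in each of the 12 libraries, coloured by group (R6/2 PLX3397, R6/2 vehicle, wild-type PLX3397, wild-type vehicle). The 4 libraries of 70 to 112 reads for Rps3a1 and the 5 of 84 to 148 reads for Rps2 stand apart from the rest, with 2 libraries low for both genes.

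Some genes on the same chromosomes as these members, also picked after their values were seen, were low or high in the same libraries. AA388235, a noncoding RNA gene at chr17:33981492-33985358 near Rps18 (chr17:33951998-33955665, GRCm38.p6), had 50, 58 and 0 reads in R6/2 mice on PLX3397, 52, 70 and 31 in R6/2 mice on vehicle, 53, 0 and 1 in wild-type mice on PLX3397 and 0, 45 and 53 in wild-type mice on vehicle. Its 4 libraries at 0 or 1 read were the 4 with the fewest reads of Rps18. Rnps1 at chr17:24414646-24425898, near Rps2 (chr17:24718121-24721927), had 482 to 793 reads in the 5 libraries where Rps2 was low and 906 to 1626 reads in the other libraries. Lgals2 lies at chr15:78850860-78855529, on the chromosome of Rpl3. It had its highest counts, 54 and 39 reads, in wild-type PLX3397 library 1 and wild-type vehicle library 3, where Rpl3 was lowest. In the others it had 13 to 27 reads. The strain background of the single mice was not tested here.

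Other genes of the translation machinery moved in both directions. Unless stated, the counts below stand against 17.9% of all genes called lower and 17.1% called higher in the same comparison as deposited. In R6/2 against wild-type mice on PLX3397, Fau and Rack1, ribosomal protein genes outside the symbol rule, were lower: Fau by -0.82 ± 0.17 (adjusted p = 0.00568, limma) and Rack1, a scaffold of the small subunit, by -0.71 ± 0.20. With the trend removed these differences were 0.00 and -0.36, neither of them called. Of 10 elongation factors 3 were called lower, among them Eif5a (-0.85 ± 0.15), and 1 higher, its brain isoform Eif5a2 (1.41 ± 0.26). Of 40 initiation factors 11 were called lower, among them the helicase Eif4a1 (-0.90 ± 0.13) and Eif1 (-0.80 ± 0.12), and 4 higher, among them Eif1ax (0.89 ± 0.17). With the trend removed Eif5a2 (0.54) and Eif1ax (0.05) were no longer called, while Eif5a (-0.31), Eif4a1 (-0.77) and Eif1 (-0.43) were. Of 6 termination and recycling factors 3 were called higher, Gspt2 (0.62 ± 0.12), Gspt1 (0.67 ± 0.20) and Abce1 (0.59 ± 0.19), and none lower. With the trend removed Gspt2 (0.65) was called, and Gspt1 (0.40) and Abce1 (0.01) were not. Of 22 further genes whose mRNAs are known to carry a pyrimidine tract, a list that also holds Fau and Rack1, 7 were called lower and none higher, with a median of -0.40. Without wild-type PLX3397 library 2 the lower calls were 3 of 22 (median -0.23), against 13.5% of all genes called lower in that fit. With the trend removed they were 2 of 20 (median -0.17), against 12.3% of all genes.

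Genes that make or control ribosomes were called in both directions, and their counts read against the same shares of all genes. Of 46 ribosome biogenesis factors 10 were called lower and 4 higher. Nhp2, of the complex that modifies ribosomal RNA, measured 3.72, 4.04 and 4.01 log2 CPM in R6/2 mice on PLX3397, against 5.53, 6.19 and 5.71 log2 CPM in wild-type mice on PLX3397, with no overlap and a log2 difference of -1.88 ± 0.18 (adjusted p = 0.000178, limma). Ubtf, a transcription factor of ribosomal DNA, had -1.11 ± 0.11, and Mdn1, a large ATPase of subunit maturation, had 1.74 ± 0.21. Nhp2, Ubtf and Mdn1 were also called, in the same direction, without wild-type PLX3397 library 2 and with the trend removed. Of 20 regulators of mTOR and Myc, 5 were lower, among them Myc (-1.01 ± 0.20), and 3 higher, among them the mTOR partner Rictor (1.86 ± 0.31). Of 9 p53 targets 2 were lower and 1 higher.

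Sets of genes outside the cytosolic ribosome also had medians below 0 in the same comparison. Of 77 mitochondrial ribosomal protein genes, 27 were called lower and none higher, with a median of -0.41, and of 78 nuclear genes for respiratory chain subunits 48 were called lower and none higher, with a median of -0.58. With the trend removed these medians were -0.11 and -0.10, and that of the cytosolic ribosomal proteins was -0.16. The pattern of the cytosolic ribosomal proteins was thus not shown to be particular to them.

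Members with and without a pyrimidine tract that begins with C at the annotated start had similar median changes. A smaller share of those with it was called lower. In R6/2 against wild-type mice on PLX3397, 4 of the 15 members with a tract were called lower (Rplp2, Rpl35, Rps10 and Rps21, printed above), with a median log2 difference of -0.65. Of the 49 members without it 28 were called lower, with a median of -0.60, and of the 22 members with no promoter entry 9 were called lower, with a median of -0.60. All values here are as deposited, where 17.9% of all genes were called lower. Rpl7a, whose start lies inside a run of C and T letters but falls on a T, is among the members without a tract. The difference between these classes was not tested.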

How the data were processed

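Per the labels' protocols, RNA was extracted with Trizol and libraries followed a TruSeq protocol; the submitters' processing notes name STAR, featureCounts, edgeR, limma and mm10. How reads of repeated copies, and strand, were counted is not given in the sources used here. The deposited values are log2 CPM with a prior of 2 reads on average, although named RPKM: undoing the scaling gave whole reads, to within 0.1, for 100% of values. This differs from the RPKM planned for, so the log2 values were used as deposited, with no filter. Groups were compared with limma 3.58.1 (R 4.3.3), with an intensity trend, in 1 fit of 4 group means over 12 libraries, two-sided, with p-values adjusted over 15397 genes. In simulated data with 3 mice per group, this fit recovered 44.7% of 2-fold and 78.7% of 4-fold changes in R6/2 against wild-type mice on vehicle, over 15397 genes. Positions came from RefSeq (all 86 members matched), and GENCODE M21 transcripts gave length and GC content (85 members; 14305 genes, 92.9%); the trend was removed by natural splines with 5 degrees of freedom. Alternatives were other priors, a filter, median-of-ratios scaling, fits of 6 libraries, a replicate block, limma-voom on recovered reads and leaving out libraries. Named genes are, for each comparison, up to 6 called members with the largest rise and fall or the 6 of smallest p, fixed well-known members and paralog pairs, the extremes of level and range, and up to 4 genes of smallest p in each pathway list; some genes under this rule are not reported here. Members and lists were chosen with earlier results of these data known. Figures were drawn with matplotlib 3.10.9.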

Additional observations from a re-analysis of the deposited data

Results flagged for a closer look

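The change with PLX3397 differed between R6/2 and wild-type mice for 5 members, tested as the interaction of genotype and drug with limma: Rpl29 (-1.44, adjusted p = 0.0175), Rps19bp1 (-1.07, adjusted p = 0.0175), Rplp0 (-0.92, adjusted p = 0.0390), Rpl7a (-0.66, adjusted p = 0.0232) and Rpl22 (-0.62, adjusted p = 0.0360). These are 5.81% of the members, against 7.71% of all genes called lower and 17.0% called in either direction, so the count is no larger than the background. In each the difference with the drug was below 0 in R6/2 mice and above 0 in wild-type mice. Over the alternatives the adjusted p ran from 0.0139 to 0.235 for Rpl29, 0.0139 to 0.353 for Rps19bp1, 0.0256 to 0.285 for Rplp0, 0.0222 to 0.839 for Rpl7a and 0.0152 to 0.291 for Rpl22. With the GC and length trend removed none of the 5 was called, against 2.2% of all genes.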

How the results depend on the processing

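Other priors, the filter, median-of-ratios scaling and limma-voom left every count of called members within 1.5 times its value and every median within the replicate spread; the cause of the changes below was not tested. With only the 6 libraries compared, called members numbered 0 for the drug in wild type and 11 for R6/2 against wild type on PLX3397. With the GC and length trend removed there were 1 (R6/2 against wild type, vehicle), 2 for the drug in wild type (median 0.16), 16 for R6/2 against wild type on PLX3397 (median -0.16) and 0 for the interaction (median -0.24), and the drug's median in R6/2 was -0.028; over all genes the calls there were 947, 922, 3352 and 315, against 325, 2191, 5389 and 2617 as deposited, and they split as 549 higher and 398 lower, against 95 and 230 as deposited, between R6/2 and wild type with vehicle, and as 653 and 269, against 913 and 1278, for the drug in wild type, and as 82 and 233, against 1430 and 1187, for the interaction. Without R6/2 PLX3397 libraries 1 and 2 there were 0 for the drug in wild type, 0 for R6/2 against wild type on PLX3397 and 0 for the interaction, with 1 library left in that group and its spread taken from the others. Without R6/2 vehicle library 1 and wild-type PLX3397 library 1 these were 30, 62 and 11. Apart from the fit without wild-type PLX3397 library 2 alone, fits on fewer libraries are given without the share of all genes called. The same holds for the replicate block, so these counts are not set against a background. Without wild-type PLX3397 library 2 and R6/2 vehicle library 1, chosen after seeing the data, there were 1 for the drug in wild type (median 0.19) and 2 for the interaction (median -0.30). The replicate block gave 0, 26 and 3. Same-numbered libraries correlated at -0.32 to 0.40 in their deviations. Values for differently numbered libraries are not given here, so these correlations cannot decide whether the numbers pair the mice. Leaving out each library gave 0 to 16 calls and medians of 0.19 to 0.57 for the drug in wild type, 0 and -0.35 to -0.10 for the drug in R6/2, 15 to 59 and -0.75 to -0.41 for R6/2 against wild type on PLX3397, 0 and -0.10 to 0.15 in R6/2 against wild type with vehicle, and 0 to 30 and -0.81 to -0.45 for the interaction. No called member, among those named for their comparison, reversed direction; of their values under alternatives, 46 of 92 for the drug in wild type, 12 of 138 for R6/2 against wild type on PLX3397 and 39 of 110 for the interaction lost their call. With 3 mice per group, many small changes of single members could go undetected.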
